A study of Mus musculus with 7 samples.

Results

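The genes described here are very long protein-coding genes that were read at a measurable level in mouse intestinal epithelium. Members were chosen by length and mean level: the deposited table gave each a gene length of at least 12000 nt and a mean of at least 1 FPKM over the 7 libraries (FPKM divides the fragments of a gene by its length and by the depth of the library). Of 46671 genes in the table, 997 protein-coding genes had such a length at any level and 397 also reached the mean level. The rule named 7 genes to be left out (Apob, Fcgbp, Muc2, Taok1, Onecut2, Notch2 and Usp34), of which 5 met the length and level conditions, so that 392 members remained. The level used by the rule was the mean over both groups, and the lengths and mean levels given below are therefore descriptions.

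The study compared 3 wild-type libraries (Ctrl) with 4 libraries from mice in which MST3, the STE20-family kinase encoded by Stk24, was knocked out in intestinal epithelial cells (cKO). All mice were BALB/C animals of 8 weeks kept under SPF conditions. The treatment label of both groups says that no drug was given, whereas the design text names AOM and DSS, and the treatment of these mice was therefore not settled. The promoter that drove the deletion is not given in the sources used here, and whether each library is a separate mouse is not labelled. The p-values therefore measure the spread between libraries, which may in part be technical.

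Stk24 stood at 19.4, 19.4 and 21 FPKM in Ctrl 1 to 3 and at 2.92, 3.04, 3.85 and 3.53 FPKM in cKO 1 to 4. Its log2 difference was -2.42 (SE 0.12, limma adjusted p = 0.000427), and every cKO library lay below every Ctrl library. The tissue label is colorectum, but the colon genes Car1 and Aqp8 did not exceed 1.56 FPKM in any library, while Lct, the lactase gene of small-intestinal enterocytes, and Defa24, a Paneth cell defensin gene, were at least at 279.7 and 2033 FPKM. The 7 libraries held between 14659708 and 19659622 reads on genes.

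Long genes of this kind encode several classes of giant protein: HECT-type and other very large ubiquitin enzymes, chromatin regulators, spectraplakins and other cytoskeletal linkers, lipid-transfer proteins of the VPS13 family, and kinases that watch over DNA and RNA quality. Other long mRNAs encode proteins of ordinary size and owe their length to a long 3' untranslated region, where microRNAs and RNA-binding proteins bind. In intestinal epithelium they include brush-border enzymes, membrane mucins and the linkers that tie the cytoskeleton to cell junctions. Measurements of long RNAs are known to depend on RNA integrity, on the capture of poly(A) tails, on base composition and on the transcript model by which reads are divided.

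The deposited gene length was compared with the annotated transcripts first, because the name of the set rests on it. The median deposited length of the 392 members was 15156 nt and the longest was Kalrn at 77184 nt. In the GENCODE M21 annotation all 392 had a coding transcript of the same gene symbol, and the longest coding transcript per gene had a median of 7410 nt. Only 69 members had a coding transcript of at least 12000 nt and 170 had one of at least 8000 nt, while for 216 members the longest one covered less than 50% of the deposited length. For 388 members the deposited length was at least that of the longest transcript. So for most members the deposited length was not that of any single annotated mRNA, and an FPKM value divided by it understates such a gene relative to others. Differences between libraries are taken within a gene, but because they were computed on log2(FPKM + 0.5), an FPKM lowered in this way also makes the difference smaller.

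**Figure D1:**
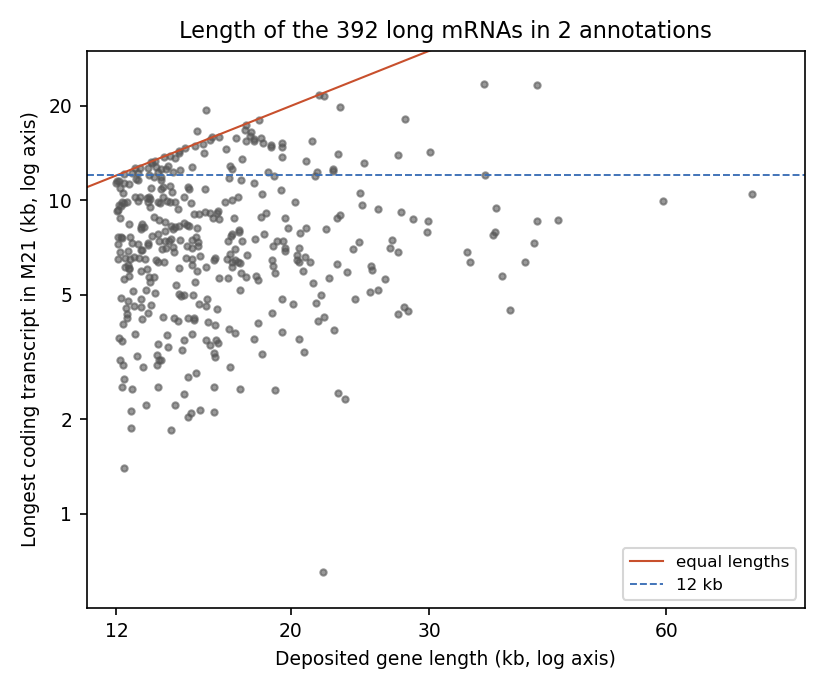
Deposited gene length of each of the 392 members (x axis, kb, log axis) against its longest coding transcript in GENCODE M21 (y axis, kb, log axis). The solid line marks equal lengths and the dashed line 12 kb, and the 69 members with a transcript of at least 12000 nt lie on or above the dashed line.

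The coding regions of the members spanned a wide range. The median of the longest coding sequence per gene was 3131 nt, and 97 members had one of at least 6000 nt. The longest belonged to Dst, the dystonin gene of hemidesmosomes and microtubule crosslinking, at 23154 nt. The genomic span of the members had a median of 102978 bp, against 20753 bp for the other protein-coding genes that reached 1 FPKM on average. The G and C content of the longest transcript had a median of 47.5% in the members and 50.5% in the other genes.

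Most members were of low level per length. The median of their mean levels was 3.03 FPKM, 364 of 392 stood under 10 FPKM and 11 reached 20 FPKM. Their length made up for this in depth: a member was supported by a median of 816 reads in a library, and the lowest count was 123 reads. The most abundant member was Mgam, the brush-border maltase-glucoamylase, at 398, 409 and 297 FPKM in Ctrl 1 to 3 and 359, 357, 399 and 498 FPKM in cKO 1 to 4. Its groups overlapped, with the highest value in cKO 4 and the lowest in Ctrl 3. Mgam alone held between 10.3% and 15.3% of the reads of all members. Muc3, a membrane mucin, stood at 107, 205 and 149 FPKM in Ctrl 1 to 3 and at 93.8, 83.6, 259 and 187 FPKM in cKO 1 to 4. The cKO libraries of Muc3 fell on both sides of the Ctrl values, cKO 1 and 2 below all of them. Its longest coding transcript in GENCODE M21 had 1853 nt against a deposited length of 14068 nt. St3gal4, a sialyltransferase, had 40.3, 39.6 and 75.2 FPKM in Ctrl and 72.0, 35, 78.7 and 86.5 FPKM in cKO. High and low libraries of St3gal4 occurred in both groups.

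The question put to the set was whether long mRNAs shifted together between Ctrl and cKO and in each library. The members stood slightly higher in the cKO libraries as a group, and no single member passed the test. The comparison used limma on log2(FPKM + 0.5) over all 13057 genes that reached 0.5 FPKM on average, among them all 392 members. With Benjamini-Hochberg adjustment, 0 of 392 members had an adjusted p under 0.05 in either direction, where 0.0% of all genes tested were called higher and 0.0306% lower. The smallest adjusted p of a member in limma was 0.493. At an unadjusted threshold of 0.05, limma placed 28 members as higher in cKO, which was 7.14% of the members, where the background over all genes tested was 4.24%. In the other direction it placed 1 member, against 4.73% of all genes. This excess depended on which library was left out. The count of 28 was 11 without Ctrl 1, or 2.81% against 2.55% of all genes in the same fit. It was 11 without cKO 2, or 2.81% against 3.0%, and 15 without cKO 3, or 3.83% against 3.26%. The excess remained without Ctrl 2, at 6.89% against 3.42%, and without Ctrl 3, at 5.87% against 3.16%. It also remained without cKO 1, at 6.12% against 4.27%, and without cKO 4, at 6.89% against 3.87%. In 64 members, or 16.3%, every cKO library lay above every Ctrl library, where 5.62% of all genes tested did so. The opposite order was found in 1 member, where 4.51% of all genes showed it.

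The differences were small. The log2 difference, cKO minus Ctrl, was above 0 in 322 of 392 members (82.1%), compared with 48.7% of all genes tested. Its median was 0.14, with quartiles of 0.027 and 0.23, where the median of all genes tested was -0.0077. No member differed by more than 0.5 log2 units in either direction. The largest difference was that of Nbeal1, a BEACH-domain protein gene, at 0.49, and the lowest that of Fam78a at -0.38. The median standard error of a member was 0.15, about the size of the median difference, so that a shift of this size in a single member could not be told from the spread between libraries.

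The shift was read in each library as the median, over the members, of the log2 deviation of a library from the mean of the gene over the 7 libraries. This median was -0.15 in Ctrl 1, -0.06 in Ctrl 2 and -0.0205 in Ctrl 3. In cKO 1 to 4 it was 0.027, 0.10, 0.076 and 0.0315. All 4 cKO libraries lay above all 3 Ctrl libraries, but the gap between cKO 1 and Ctrl 3 was 0.048, about the pooled SD of 0.051 between libraries of a group. For the 197 members with a mean of 3 FPKM or more it was 0.0085. Ctrl 1 was the lowest library and cKO 2 the highest.

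Counted by gene, the same order was seen. The library exceeded the 7-library mean of the gene in 78, 124 and 180 members in Ctrl 1 to 3 and in 229, 282, 257 and 230 members in cKO 1 to 4. Ctrl 1 was the lowest of the 7 libraries in 164 members, more than any other library. The highest library was a cKO library in 319 members, most often cKO 2, with 122, and cKO 3, with 97. Of the reads on all genes, members took 3.16%, 3.55% and 3.55% in Ctrl 1 to 3 and 3.71%, 3.92%, 3.90% and 3.51% in cKO 1 to 4. By this share of reads cKO 4 lay below Ctrl 2 and 3, so the groups overlapped.

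**Figure D2:**
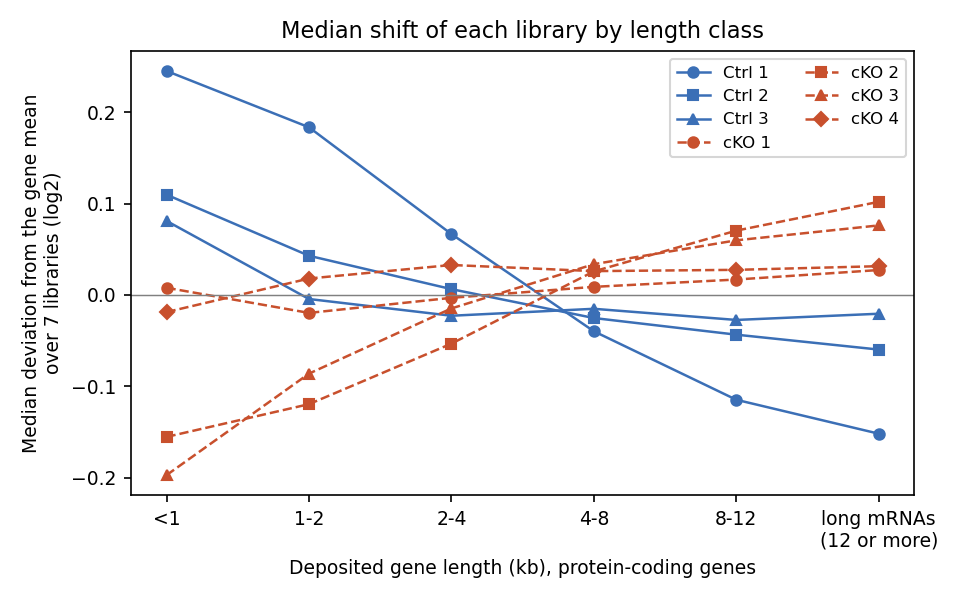
Median log2 deviation of each library from the gene mean over 7 libraries (y axis) by deposited gene length of protein-coding genes that reached 1 FPKM on average (x axis, kb). Solid lines are the 3 Ctrl libraries and dashed lines the 4 cKO libraries, and the order of Ctrl 1 and cKO 2 and 3 is inverted between the shortest class and the members at the right.

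Protein-coding genes of other lengths were set beside the members with the same minimum level. The median log2 difference was -0.23 for 587 genes under 1000 nt, -0.13 for 1762 genes of 1000 to 2000 nt, -0.03 for 3523 genes of 2000 to 4000 nt, 0.06 for 3124 genes of 4000 to 8000 nt and 0.11 for 821 genes of 8000 to 12000 nt. The value of the members, 0.14, was thus the end of a series that ran through all lengths, and 12000 nt was not a step in it. In the class just below the members 108 of 821 genes (13.2%) had every cKO library above every Ctrl library. In the same class 82 genes, or 9.99%, were higher at an unadjusted p under 0.05, a larger share than the 7.14% of the members. For genes of 4000 to 8000 nt that share was 6.98%, so by this count the members did not stand out from the long genes below 12000 nt. The shortest class moved opposite to the members within libraries too: its median deviation was 0.25 in Ctrl 1, where that of the members was lowest, and -0.16 and -0.20 in cKO 2 and 3, where that of the members was highest. Among genes between 1 and 10 FPKM the median was 0.14 for 364 members and -0.25 for 133 genes under 1000 nt.

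By median difference, the deposited length and the annotated length gave much the same picture within the set. The 69 members with a coding transcript of at least 12000 nt had a median difference of 0.14, with 9 under an unadjusted p of 0.05 as higher. In 12 of them, or 17.4%, every cKO library lay above every Ctrl library, against 5.62% of all genes tested. The 101 members with a transcript of 8000 to 12000 nt had a median of 0.16, the 166 of 4000 to 8000 nt had 0.13 and the 56 under 4000 nt had 0.095. The share under an unadjusted p of 0.05 as higher fell with transcript length, at 13.0%, 10.9%, 4.22% and 1.79% in the same order. Over all genes tested it was 4.24%, about that of the group of 4000 to 8000 nt and above that of the group under 4000 nt. By size of the protein the medians were nearly equal. The median was 0.14 for 97 members with a coding sequence of at least 6000 nt, 0.14 for 187 with 2000 to 6000 nt and 0.13 for 108 with less than 2000 nt. The share under an unadjusted p of 0.05 as higher fell in this order too, at 11.3%, 7.49% and 2.78%, against 4.24% of all genes tested. So did the median level, at 3.90, 3.17 and 2.43 FPKM. These subsets are described by their medians and shares, and no difference between them was tested.

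Base composition went with larger differences between members than length did. The tested protein-coding genes were split into terciles at 47.2% and 53.5% G and C in the longest transcript. The 191 members in the low tercile had a median log2 difference of 0.21, with 184 above 0. They held 26 of the 28 members higher at an unadjusted p under 0.05, and 51 of the 64 members higher without overlap. These were 13.6% and 26.7% of the low-tercile members. Low-tercile genes of 8000 to 12000 nt gave 19.1% and 23.5% by the same counts, so such shares were not limited to the members. The 141 members in the middle tercile had a median of 0.105, with 119 above 0. The 60 members in the high tercile had a median of -0.06, with 19 above 0, and none of them was higher in every cKO library. Genes of 8000 to 12000 nt gave medians of 0.20, 0.069 and -0.06 in the same terciles, and genes of 4000 to 8000 nt gave 0.19, 0.032 and -0.11. Genes of 2000 to 4000 nt gave 0.125, -0.023 and -0.15, and genes of 1000 to 2000 nt gave 0.050, -0.11 and -0.22. In the low tercile, genes of 2000 to 4000 nt thus came near the median of all members, 0.14. Genes under 1000 nt gave -0.13, -0.19 and -0.29. Both length and base composition went with the difference, and their part in the difference between groups was not tested.

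**Figure D3:**
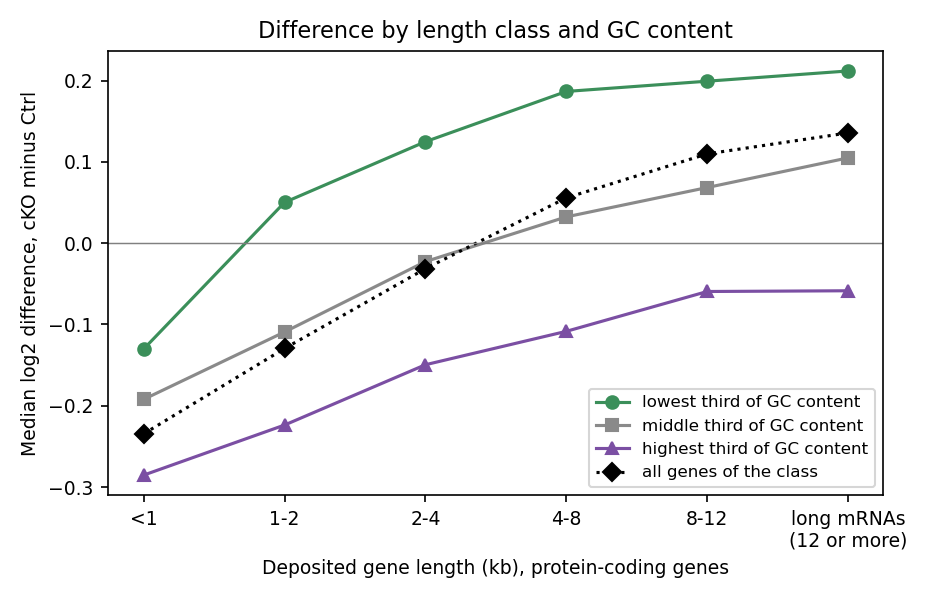
Median log2 difference, cKO minus Ctrl (y axis), by deposited gene length of protein-coding genes (x axis, kb), for the low, middle and high terciles of transcript G and C content and for all genes of a class (dotted line). The low-GC members reach 0.21 and the high-GC members lie at -0.06.

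The per-library shift differed between these terciles as well. In the low tercile the median deviation of the members was -0.20, -0.075 and -0.078 in Ctrl 1 to 3 and 0.039, 0.13, 0.12 and 0.0465 in cKO 1 to 4. Groups were apart there by more than in the whole set. In the high tercile it was -0.019, -0.01 and 0.10 in Ctrl and 0.020, 0.047, -0.11 and -0.026 in cKO. There the groups overlapped, with Ctrl 3 highest and cKO 3 lowest.

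A coding stretch from the middle of 4 members is printed, with G and C in capitals. Shown are the members with the smallest p in the low tercile, Usp9x and Ralgapa2, and in the high tercile, Fam78a and Lrp1. Members of a single chromosome, and members whose longest transcript had a coding length not in whole codons, were left out of this choice. Each line gives 120 bases of the coding strand from GENCODE M21 (GRCm38), read 5' to 3': bases 3772 to 3891 of the 7665 coding bases of Usp9x, 2806 to 2925 of 5733 in Ralgapa2, 6760 to 6879 of 13638 in Lrp1 and 367 to 486 of 852 in Fam78a.
Usp9x: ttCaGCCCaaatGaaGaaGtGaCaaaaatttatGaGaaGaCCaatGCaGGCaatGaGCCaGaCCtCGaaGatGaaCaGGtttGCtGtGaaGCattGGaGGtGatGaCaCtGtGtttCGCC
Ralgapa2: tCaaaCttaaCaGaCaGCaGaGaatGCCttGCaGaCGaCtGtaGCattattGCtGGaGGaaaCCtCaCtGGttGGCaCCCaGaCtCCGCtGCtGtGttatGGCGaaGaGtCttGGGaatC
Lrp1: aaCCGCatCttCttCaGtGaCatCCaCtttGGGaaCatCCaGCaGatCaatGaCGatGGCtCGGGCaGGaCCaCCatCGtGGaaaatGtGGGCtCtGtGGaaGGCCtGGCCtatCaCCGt
Fam78a: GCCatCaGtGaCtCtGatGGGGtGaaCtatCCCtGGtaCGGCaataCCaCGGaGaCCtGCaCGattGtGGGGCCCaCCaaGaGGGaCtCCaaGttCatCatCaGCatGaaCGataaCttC
G and C made up 45.0% of the stretch of Usp9x and 50.0% of that of Ralgapa2, against 54.2% in Lrp1 and 53.3% in Fam78a. The stretches of Ralgapa2 and Fam78a thus both lay between the tercile limits of 47.2% and 53.5%. Over the whole transcript the values lay further apart, at 40.0% and 47.0% against 57.9% and 56.6%.

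The 10 members with the smallest unadjusted p among those without overlap were named by rule, and they came from several classes of protein. None of them passed after adjustment. Usp9x (chrX:12937221-13039567, plus strand, GRCm39, as are all positions given here), an X-linked deubiquitinase, stood at 6.29, 7.42 and 7.49 FPKM in Ctrl 1 to 3 and at 8.82, 10.4, 11.1 and 9.02 FPKM in cKO 1 to 4. The lowest cKO library lay above the highest Ctrl library, and the log2 difference was 0.45 (SE 0.12, limma adjusted p = 0.493). Ralgapa2 (chr2:146081796-146354174, minus strand), a subunit of a GTPase-activating complex for Ral proteins, had 4.03, 3.94 and 4.40 FPKM in Ctrl and 5.62, 5.11, 5.27 and 6.03 FPKM in cKO. Its log2 difference was 0.38 (SE 0.11, limma adjusted p = 0.511).

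Utrn (chr10:12257931-12745632, minus strand) encodes utrophin, the dystrophin relative that links actin to the plasma membrane. Its values were 4.96, 5.22 and 4.92 FPKM in Ctrl and 6.54, 6.52, 6.09 and 7.29 FPKM in cKO. The spread within Ctrl was small (SD 0.16, n = 3) and the log2 difference was 0.36 (SE 0.10, limma adjusted p = 0.511). Lpp, a LIM-domain protein of cell adhesions, likewise varied little, with 4.48, 4.62 and 4.52 FPKM in Ctrl and 5.45, 5.71, 5.38 and 5.85 FPKM in cKO. Its coding sequence of 1842 nt is short for the set and its longest transcript carries a 3' untranslated region of 13257 nt. The log2 difference of Lpp was 0.27 (SE 0.095).

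Pum2, a Pumilio protein that represses the translation of bound mRNAs, had 6.59, 7.0 and 6.19 FPKM in Ctrl and 8.25, 9.48, 9.16 and 7.76 FPKM in cKO. Ube3a, the E6AP ubiquitin ligase, had 3.30, 3.44 and 3.66 FPKM in Ctrl and 4.40, 4.90, 5.04 and 4.21 FPKM in cKO. Both had cKO 4 as their lowest cKO library, and their log2 differences were 0.37 each (SE 0.11). The chromatin protein Brwd3, with bromodomains and WD repeats, had 1.55, 1.88 and 1.47 FPKM in Ctrl and 2.44, 2.29, 2.41 and 2.27 FPKM in cKO. Ash1l, a histone H3 lysine methyltransferase, had 3.78, 4.13 and 4.01 FPKM in Ctrl and 5.16, 6.38, 4.79 and 5.05 FPKM in cKO, with cKO 2 above the other libraries. Their log2 differences were 0.43 (SE 0.13) and 0.38 (SE 0.12).

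Vps13a, a bridge-like lipid-transfer protein, had 2.48, 2.82 and 3.03 FPKM in Ctrl and 3.52, 4.38, 3.45 and 3.71 FPKM in cKO. Gprin3 had 3.67, 5.11 and 3.48 FPKM in Ctrl and 5.60, 5.71, 5.79 and 5.75 FPKM in cKO. The cKO values of Gprin3 were nearly equal (SD 0.082, n = 4), whereas Ctrl 2 stood apart from the other two Ctrl libraries. The log2 differences of Vps13a and Gprin3 were 0.38 (SE 0.13) and 0.45 (SE 0.14). For each of these 10 members the exact 2-sided permutation p was 0.0571, the smallest that 3 against 4 libraries allow. This value was fixed by choosing members without overlap, so it adds nothing to that choice. The adjusted p of these 10 members in limma ran up to 0.516.

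**Figure D4:**
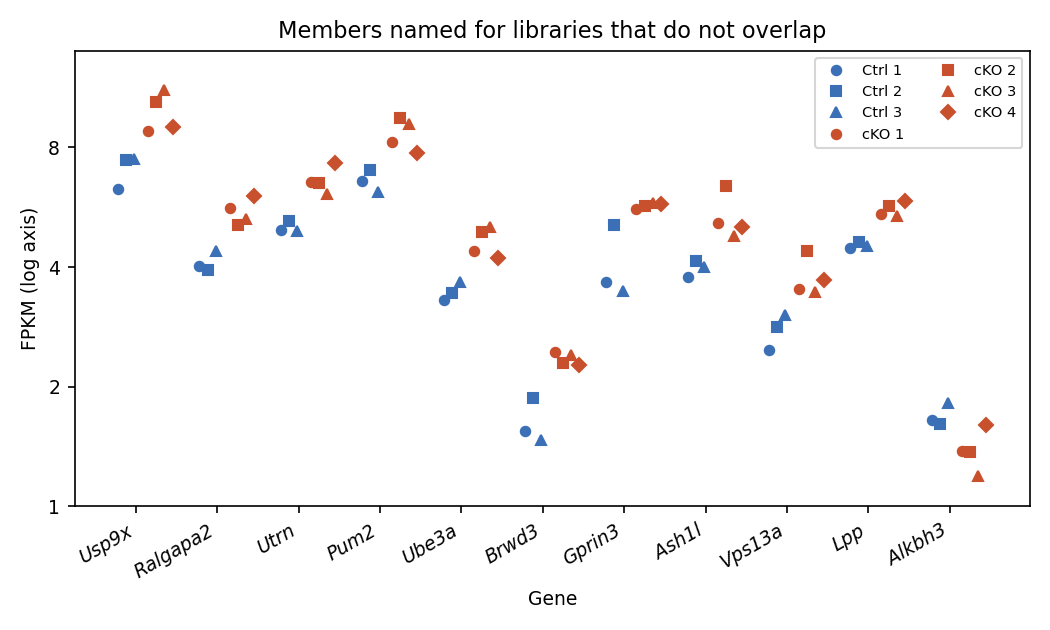
FPKM (y axis, log axis) of the 10 members named as higher and of Alkbh3, the 1 member named as lower (x axis), with 1 point for each of the 3 Ctrl and 4 cKO libraries. In each gene the groups do not overlap, by 8.82 against 7.49 FPKM in Usp9x and by 1.60 against 1.61 FPKM in Alkbh3.

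Of the 392 members, 134 were in at least 1 of 9 lists of genes by role, and 258 were in none. The median log2 difference was 0.14 in the former and 0.13 in the latter, and 0 members of any list passed the adjusted test in limma. Beside the members of a list stand its other tested genes, which are all those outside the set, including any left out by the rule or below the minimum level.

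Among ubiquitin enzymes, which tag proteins for degradation or remove the tag, all 11 members had a difference above 0, with a median of 0.15, and 4 did not overlap. Birc6, a giant ubiquitin-conjugating inhibitor of apoptosis, averaged 6.86 ± 0.295 FPKM over the Ctrl and 8.52 ± 0.870 FPKM over the cKO libraries (SD, n = 3 and 4), which gave a log2 difference of 0.29 (SE 0.11). The most abundant member, Rnf213, a giant ligase with a AAA ATPase core, had 16.5, 12.3 and 18.7 FPKM in Ctrl and 11.8, 23.5, 14.6 and 16.9 FPKM in cKO, with the lowest and the highest value both in cKO. The 17 other tested genes of the list had the same median, 0.15, with 4 under an unadjusted p of 0.05 as higher, none as lower and 0 after adjustment.

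Of 29 chromatin regulators among the members, 25 had a difference above 0, and the median was 0.14. Brwd3 and Ash1l, given above, and Asxl2, a Polycomb-associated protein, did not overlap between groups. Kmt2c, a histone H3 lysine 4 methyltransferase of enhancers, stood at 3.78 ± 0.639 FPKM over Ctrl and 4.68 ± 0.490 FPKM over cKO (SD, n = 3 and 4), and its groups overlapped. The most abundant chromatin member, Tet3, which oxidizes 5-methylcytosine, had 9.76, 9.35 and 10.1 FPKM in Ctrl and 10.8, 10.4, 8.95 and 9.40 FPKM in cKO, with a log2 difference of 0.020 (SE 0.10). For 34 other tested chromatin genes the median was 0.14, with 4 under an unadjusted p of 0.05 as higher and none as lower.

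The 22 cytoskeletal members were mixed, with 16 above 0 and a median of 0.11. Apc, the scaffold that promotes the destruction of beta-catenin and binds microtubules, did not overlap, at 6.06 ± 0.948 FPKM over Ctrl and 7.31 ± 0.484 FPKM over cKO (SD, n = 3 and 4), a log2 difference of 0.26 (SE 0.13). Plec, the plectin linker of intermediate filaments and the most abundant of this list, went the other way, with 32.9, 38.7 and 46.6 FPKM in Ctrl and 30.7, 26.6, 35 and 40.1 FPKM in cKO. Its groups overlapped and its log2 difference was -0.25 (SE 0.17, limma adjusted p = 0.690). The Plec transcript held 61.3% G and C. The 30 other tested cytoskeletal genes had a median of 0.13, with none under an unadjusted p of 0.05.

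Membrane traffic and lipid transfer was the list with the highest median among the members, 0.27 over 11 members, with 10 above 0, 6 under an unadjusted p of 0.05 and 5 without overlap. They included Vps13a and its relative Vps13b, at 3.02 ± 0.269 FPKM over Ctrl and 4.04 ± 0.479 FPKM over cKO (SD, n = 3 and 4). Lrba, a BEACH-domain protein that keeps surface receptors from lysosomal breakdown, averaged 11.5 ± 0.776 and 13.8 ± 0.697 FPKM, with a log2 difference of 0.25 (SE 0.099). The 31 other tested genes of this list also had a high median, 0.21, with 5 under an unadjusted p of 0.05 as higher and none as lower. The single member below 0 was Lrp1, an endocytic receptor of lipoproteins and proteases, with 16.9, 23.6 and 22.4 FPKM in Ctrl and 16.3, 14.8, 18.7 and 17.3 FPKM in cKO. Its low Ctrl 1 value lay among the cKO values, and the log2 difference was -0.30 (SE 0.14, limma adjusted p = 0.585).

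All 7 members among the giant kinases of the PIKK family and DNA repair factors had a difference above 0, with a median of 0.15, none of them without overlap. Smg1, the kinase of nonsense-mediated mRNA decay, had 9.16, 11.2 and 12 FPKM in Ctrl and 11.8, 13.6, 14 and 11.5 FPKM in cKO. Atm, the kinase that answers DNA double-strand breaks, stood at 1.73 ± 0.184 and 2.25 ± 0.420 FPKM (SD, n = 3 and 4), and both genes overlapped between groups. The 20 other tested genes of the list had a median of 0.19, with 3 under an unadjusted p of 0.05 as higher and none as lower.

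Of 13 transcription factors among the members, 12 had a difference above 0, and the median was 0.18. Nrip1, a co-repressor of nuclear receptors, stood at 3.71 ± 0.250 FPKM in Ctrl and 4.52 ± 0.151 FPKM in cKO without overlap (SD, n = 3 and 4), a log2 difference of 0.25 (SE 0.10). Rreb1, a zinc-finger factor that responds to Ras signals, had 5.20, 6.62 and 5.83 FPKM in Ctrl and 6.56, 7.91, 6.97 and 6.72 FPKM in cKO, where Ctrl 2 lay above cKO 1. The 47 other tested factors had a median of 0.13, with 4 under an unadjusted p of 0.05 as higher and none as lower. For 11 RNA-binding members the median was 0.17 with 10 above 0, and for 41 other tested genes of that list it was 0.18, with 4 higher and none lower by the same unadjusted threshold. Xrn1, the cytoplasmic 5' to 3' exonuclease, stood at 3.69 ± 0.399 and 4.47 ± 0.649 FPKM (SD, n = 3 and 4) with overlap.

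Surface receptors, adhesion and matrix genes gave the lowest median of the lists, 0.024 over 11 members, with 6 above 0 and 5 below, none under an unadjusted p of 0.05 and none without overlap. Fat1, a giant protocadherin, stood at 15.9 ± 1.36 FPKM in Ctrl and 17.6 ± 2.17 FPKM in cKO, and Egfr, the receptor of epidermal growth factor, at 1.86 ± 0.477 and 1.96 ± 0.205 FPKM (SD, n = 3 and 4). Hspg2, the perlecan core protein of basement membranes, and Pkd1, polycystin-1, had log2 differences of -0.10 (SE 0.19) and -0.12 (SE 0.14). The 43 other tested genes of the list, left-out Muc2 among them, had a median of 0.054, with 3 under an unadjusted p of 0.05 as higher and 1 as lower. Among 22 signalling members 20 had a difference above 0 and the median was 0.13, against 0.15 in 95 other tested genes, of which 18 were under an unadjusted p of 0.05 as higher and none as lower. Hipk2, a nuclear kinase and the most abundant of these members, had 10.7, 14.5 and 12.8 FPKM in Ctrl and 13.0, 14.8, 15.5 and 15.4 FPKM in cKO, with cKO 1 within the Ctrl values. In each list the other tested genes had a median of the same sign as the members, and the difference between them was not tested.

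Members lower in cKO were few. Alkbh3, a demethylase of alkylated DNA and RNA, was the 1 member in which every cKO library lay below every Ctrl library. It had 1.65, 1.61 and 1.82 FPKM in Ctrl and 1.38, 1.37, 1.19 and 1.60 FPKM in cKO, with cKO 4 just under Ctrl 2. Its log2 difference was -0.22 (SE 0.14, limma adjusted p = 0.672), and its longest coding transcript had 1395 nt against a deposited length of 12269 nt. The 1 member under an unadjusted p of 0.05 as lower was Fam78a, named after its values were seen, with 3.03, 2.65 and 3.80 FPKM in Ctrl and 2.05, 1.93, 2.52 and 2.73 FPKM in cKO. Its groups overlapped through cKO 4.

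The 5 members with the greatest deposited length did not stand out by their differences. Kalrn, a guanine nucleotide exchange factor, had 1.39, 1.86 and 1.37 FPKM in Ctrl and 1.35, 1.24, 2.07 and 2.29 FPKM in cKO. Ank3, ankyrin-G of lateral membranes, had 1.31, 1.45 and 0.849 FPKM in Ctrl and 1.0, 1.36, 1.37 and 1.46 FPKM in cKO. In both genes the groups overlapped, with cKO 1 below Ctrl 1 and cKO 4 as the highest library. Dst stood at 2.17 ± 0.301 and 2.41 ± 0.273 FPKM and Jmjd1c, a JmjC-domain protein, at 1.48 ± 0.229 and 1.87 ± 0.303 FPKM (SD, n = 3 and 4). Sox6, a transcription factor, was the only one of the 5 without overlap, with 0.941, 0.887 and 0.898 FPKM in Ctrl and 1.07, 0.996, 1.22 and 1.36 FPKM in cKO. Its log2 difference was 0.23 (SE 0.16, limma adjusted p = 0.689).

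The genes nearest to the length threshold lay close to it on both sides and were of different kinds. Just inside were Arid1b, a SWI/SNF subunit of 12000 nt with a mean of 4.48 FPKM, and Shprh, a ubiquitin ligase with a helicase domain of 12035 nt with a mean of 1.52 FPKM. Just outside were Srrm2, a splicing protein gene of 11992 nt at 29.2 FPKM, and Arhgef2, a guanine nucleotide exchange factor gene of 11986 nt at 5.66 FPKM. At the level threshold 3300002I08Rik (1.0 FPKM) and Dock10 (1.01 FPKM) lay inside, and Pigk (0.993 FPKM) and C2cd2 (0.996 FPKM) outside.

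Several features of the libraries were set beside the shift, and their order over the libraries was not that of the shift. In bulk samples such as these, fewer cells of a type and less RNA per cell cannot be told apart. Summed over 15 immune markers the level was 993 FPKM in Ctrl 1, the library with the lowest members, and between 401 and 444 FPKM in Ctrl 2 and 3, against 266 to 634 FPKM in cKO. Most of the sum in Ctrl 1 came from Gzma, at 696 FPKM, and Gzmb, at 179 FPKM. Cd3e and Cd8a were also highest in Ctrl 1, at 43.2 and 35.1 FPKM. Other markers were lower in Ctrl 1 than in Ctrl 2, with Lyz2 at 2.53 against 5.80 FPKM and Cd79a at 0.154 against 1.84 FPKM. The 8 markers of Paneth and stem cells summed to 9039 to 27740 FPKM in Ctrl and 4481 to 18640 FPKM in cKO, with cKO 3 and 4 lowest. The 12 enterocyte markers summed to 28900 to 35200 FPKM in Ctrl and to 20820 to 37770 FPKM in cKO, and the 7 goblet markers to 5358 to 8285 and 4328 to 7266 FPKM. Markers of other layers were scarce: 14 stromal and muscle markers summed to at most 20.7 FPKM, 8 endothelial markers to at most 2.01 FPKM with Emcn at 0, and 8 enteric nerve markers to at most 0.939 FPKM with Sox10 at 0 in all libraries. No tested marker of these lists was under an adjusted or an unadjusted p of 0.05 in limma. Mitochondrial genes held 3.88%, 5.32% and 4.19% of the reads in Ctrl and 3.71%, 5.24%, 7.39% and 7.51% in cKO.

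The noncoding RNAs Malat1 and Neat1 are long and stay in the nucleus. Malat1 had 16.7, 39.2 and 36.4 FPKM in Ctrl and 26.3, 39.8, 26.9 and 22.7 FPKM in cKO. Neat1 had 15.1, 24.1 and 30.2 FPKM in Ctrl and 13.6, 19.1, 21 and 15.3 FPKM in cKO. Malat1 was lowest in Ctrl 1, as were the members, and Neat1 in cKO 1, and the groups of both overlapped. Both belong to a list of 11 noncoding RNAs chosen as nuclear. Summed over this list the level was 121, 175 and 180 FPKM in Ctrl 1 to 3. In cKO 1 to 4 it was 140, 156, 129 and 91.1 FPKM, so that the sum was lowest in cKO 4 and not in Ctrl 1. No measure of RNA integrity is given in the sources used here, and the part of cell makeup, mitochondrial share and RNA quality in the shift of the members was not tested.

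The position of cKO 4 depended on the scaling of the libraries. Under a common sum of values per library (TPM) the median deviation of the members was -0.21, -0.0925 and -0.058 in Ctrl 1 to 3 and 0.098, 0.24, 0.12 and -0.089 in cKO 1 to 4, so that cKO 4 lay below Ctrl 3. Per recovered read cKO 4 was at -0.12, with Ctrl 3 at 0.0004 and Ctrl 2 at -0.078. Set against the median of all genes tested in the same library, all 4 cKO libraries lay above all 3 Ctrl libraries under the deposited scaling. TPM and per-read scaling multiply all genes of a library by 1 factor and leave this relative order nearly as it is by construction. Under TPM the median of all genes tested was itself 0.07, and that of the members was 0.21. The median difference of the members was above 0 under each scaling that was run, and it was 0.0079 once a trend with gene length was removed from each library and 0.080 once a trend with G and C content was removed.

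**Figure D5:**
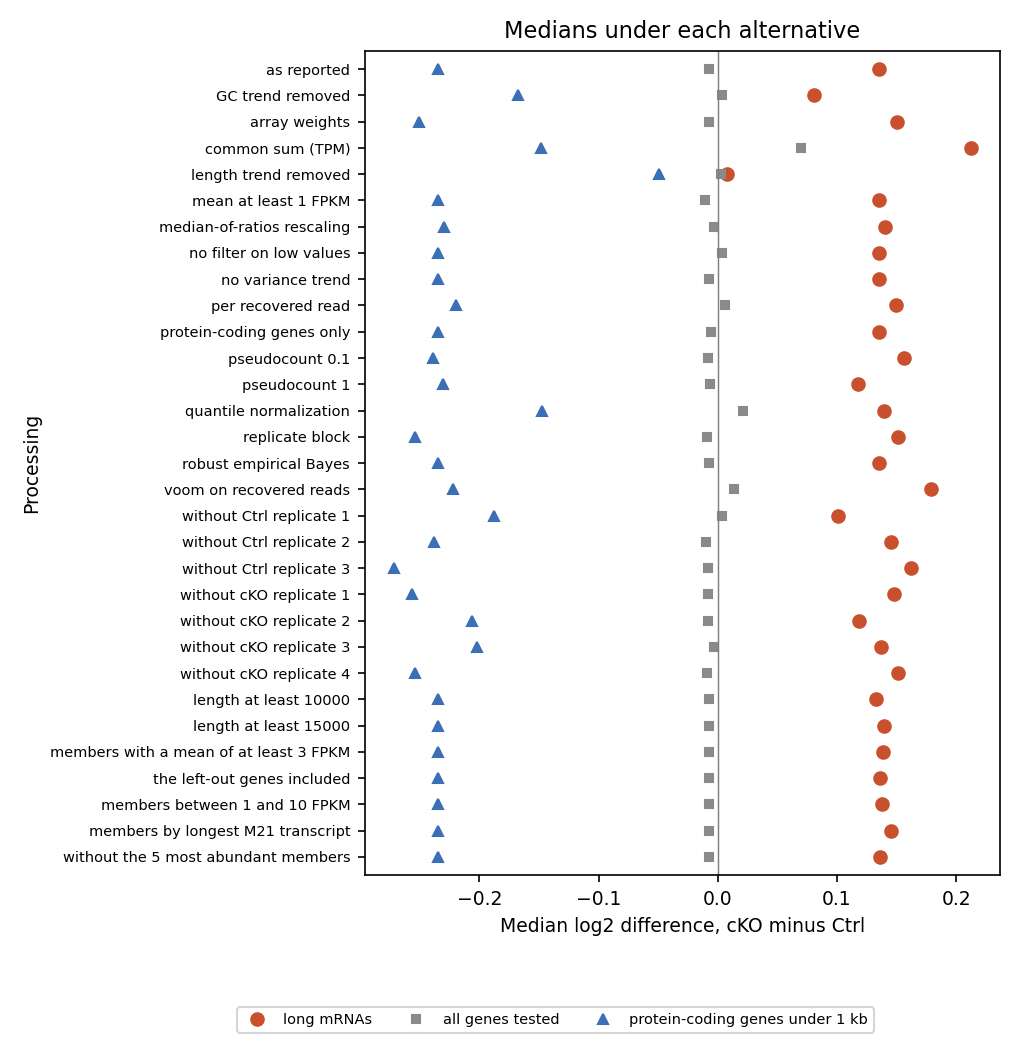
Median log2 difference, cKO minus Ctrl (x axis), of the members (circles), of all genes tested (squares) and of protein-coding genes under 1 kb (triangles) under each processing (y axis). The members lie between 0.0079, with the length trend removed, and 0.21, under a common sum, and the genes under 1 kb lie below 0 in each.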

How the data were processed

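Gene levels were measured by RNA-seq in 3 Ctrl and 4 cKO libraries. The authors deposited 1 table with FPKM values and a gene length for each gene, and per the submitters' processing notes reads were aligned with HISAT2. How reads were counted, whether by strand, and with which annotation release is not given in the sources used here. Without a known strand setting, reads of overlapping and antisense genes cannot be told apart. Chromosome sequences in the deposited table are those of GRCm39. FPKM times gene length gave whole numbers of reads in 100% of values, within 0.01, from which reads per gene were recovered. The deposited FPKM had been divided by library sizes of 0.891 to 1.10 times the recovered totals. A gene of 12000 nt with 3 reads stood at no more than 0.0180 FPKM.

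Differences were tested with limma 3.58.1 (R 4.3.3; lmFit, eBayes with trend, 2-sided, Benjamini-Hochberg over all genes tested) on log2(FPKM + 0.5), for 13057 genes that reached 0.5 FPKM on average. This scale understates the change of low genes. The procedure was tested on simulated data. The exact permutation test used the 35 splits of 7 libraries into 3 and 4. Members, lists and tests were chosen with earlier results of these data known. Named were members past the adjusted threshold, up to 10 higher and 10 lower without overlap by smallest p, the most abundant member of each role list, the 5 longest, the 5 most abundant and 2 genes on each side of each threshold. Other genes given with their role list or as extremes were chosen after their values were seen. Transcript lengths, coding sequences and G and C content were taken from GENCODE M21 by gene symbol, with no coordinates from that build. Alternatives were other pseudocounts, filters, scalings and variance models, a replicate block, other length and level limits, removal of length or GC trends, and leaving out each library.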

Additional observations from a re-analysis of the deposited data

How the results depend on the processing

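The alternatives that remove a trend with G and C content, that choose members by their longest GENCODE M21 transcript, or that leave out the 5 most abundant members were added after seeing the data. Members past the adjusted threshold numbered 0 under each alternative that was run. The median log2 difference of the members stayed above 0 in each: it was 0.14 as reported, 0.21 under TPM, 0.080 with the GC trend removed, 0.0079 with the length trend removed, and 0.10 to 0.16 with each library left out in turn, lowest without Ctrl 1. Larger pseudocounts gave smaller medians, 0.16 with 0.1 and 0.12 with 1. The number of members under an unadjusted p of 0.05 as higher, 28 as reported, was 46 with array weights, 15 per recovered read, 5 with the GC trend removed, 4 with the length trend removed, 63 with a length of at least 10000 nt, 13 with at least 15000 nt and 12 with members by longest transcript. With 1 library left out it was 11 to 27, and 11 without Ctrl 1 or without cKO 2 and 15 without cKO 3. In some of these fits the members stood close to or below all genes tested in share: 3.83% against 3.82% per recovered read, 1.28% against 1.39% with the GC trend removed, 1.02% against 4.17% with the length trend removed, 2.81% against 2.55% without Ctrl 1, 2.81% against 3.0% without cKO 2 and 3.83% against 3.26% without cKO 3. In others the share of the members was higher. It was 11.7% against 5.64% with array weights and 9.69% against 3.72% with voom. The same held without Ctrl 2, Ctrl 3, cKO 1 or cKO 4, with the values given above.

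The gap between the lowest cKO and the highest Ctrl median, 0.048 as reported, was -0.0039 with the GC trend removed, -0.031 under TPM, -0.022 with the length trend removed, -0.12 per recovered read, -0.14 with voom on recovered reads and -0.0032 for members by longest transcript, and 0.048 to 0.093 with each library left out. For the 197 members with a mean of at least 3 FPKM it was 0.0085, and 0.0001 relative to all genes tested. For all members relative to all genes tested it was -0.0059 with the GC trend removed, -0.029 with the length trend removed and -0.020 for members by longest transcript. The cause of these changes was not tested, other than that removing a trend with length takes out the shift by construction. Members higher without overlap, 64 as reported, numbered 29 with the GC trend removed, 17 with the length trend removed and 35 per recovered read or with voom.

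Of all genes tested, 4 passed the adjusted threshold as reported. The number was 1 with a minimum mean of 1 FPKM, with no filter, with a pseudocount of 0.1 and with either trend removed, 2 for protein-coding genes only, and 1 to 7 with each library left out, 7 without cKO 1. Removing the GC trend also reduced the genes tested from 13057 to 11129, those with a G and C value, so that its count reflects both changes.

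Libraries of the 2 groups share replicate numbers in their titles, while the deposited column names share no number between groups. The deviations of same-numbered libraries correlated at 0.115, -0.087 and -0.129. So few correlations cannot decide whether libraries were paired. With the replicate number as a block 0 genes passed, the median of the members was 0.15 and 23 members were higher at an unadjusted p under 0.05. cKO 4, alone in its block, then has no weight.

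The named members that turned sign under any alternative had reported differences between -0.11 and 0.13. With the length trend removed these were 2900026A02Rik (-0.083), Ank3 (-0.097), Arid1b (-0.0265), Dst (-0.047), Kalrn (-0.087), Rnf213 (-0.088) and Tet3 (-0.0935). With array weights they were 2900026A02Rik (-0.011), Ank3 (-0.013), Kalrn (-0.082) and Mgam (-0.0058), and with the replicate block 2900026A02Rik (-0.019) and Kalrn (-0.0053). Shprh was at -0.059 with the GC trend removed, and Muc3 at 0.0003 under TPM and 0.038 with quantile normalization. With each library left out, 2900026A02Rik ranged from -0.019 to 0.0905, Ank3 from -0.0695 to 0.19, Dock10 from -0.23 to 0.11, Kalrn from -0.0053 to 0.22, Mgam from -0.014 to 0.22, Muc3 from -0.38 to 0.16, Rnf213 from -0.13 to 0.20 and Tet3 from -0.021 to 0.0645.

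Members had at least 123 reads in each library. The median standard error of a member was 0.15 log2 units, and how much of it is counting error was not tested.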

Other observations

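Promoters of the members were compared with those of other protein-coding genes of at least 1 FPKM, in windows of 300 bases around each transcription start in RefSeq (GRCm38.p6). Windows were found for 311 of the 392 members (447 windows) and for 7963 other genes (10055 windows). Both strands were searched. The core of the TEAD motif, GGAATG, the site of the factors that YAP acts through, occurred in 12.3% of the windows of members and 11.9% of the others. The GC box, GGGCGG, occurred in 66.4% and 62.9%, the TATA box, TATAAA, in 6.94% and 7.35%, and the AP-1 site, TGANTCA, in 4.03% and 5.28%. The median G and C content of these windows was 64.3% in the members and 60.7% in the others, the reverse of the order in their transcripts. These shares are descriptions of the letters in the windows, with no test, and overlap between motifs was not removed.

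The 5 genes that met the length and level conditions but were left out by the rule had a median log2 difference of 0.24, with 4 of 5 above 0. Including them left the count of members past the adjusted threshold at 0.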
